A study of Mus musculus with 8 samples.

Results

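The mevalonate arm of sterol synthesis is the stretch of enzymes that turns acetyl-CoA units into squalene, and 9 of its genes were taken by symbol from the authors' normalised table: Acat2, Hmgcs1, Mvk, Pmvk, Mvd, Idi1, Fdps, Ggps1 and Fdft1. These are 9 of the 57010 genes in the files, and all 9 were among the 13378 genes with enough counts to test. RNA was sequenced from wild-type C57BL/6 naive CD4 T cells that had been flow-sorted out of peripheral lymph nodes, kept in RPMI GlutaMAX with 10% FCS and activated for 20 h on coated anti-CD3 (4 µg/mL) plus coated anti-CD28 (4 µg/mL). The controls were 4 such cultures without added iron, and 4 cultures received the iron supplement that the labels call FAC, whose dose and vehicle they do not give. Mice 1 to 4 each gave a culture to both groups, and libraries are named by group and mouse. The age and sex of the mice are not stated, and the design asks how iron may act on T cell responses.

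In the mevalonate pathway, acetyl-CoA is built up to HMG-CoA, reduced to mevalonate, phosphorylated and decarboxylated to isopentenyl diphosphate, the building block of all isoprenoids. Isopentenyl units are then joined to farnesyl diphosphate, from which squalene leads to cholesterol, while geranylgeranyl diphosphate and other branches serve protein prenylation, ubiquinone and dolichol. Most of the genes are transcribed under SREBP-2, a factor released from the endoplasmic reticulum when membrane sterol is low, which acts with partners such as NF-Y at CCAAT sequences, and activated T cells use the pathway to build membranes as they grow.

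With FAC, 8 of the 9 genes rose and Ggps1 did not pass the test. The gains ran from 1.3-fold for Mvk to 1.92-fold for Hmgcs1, the HMG-CoA synthase gene. Fdps, the farnesyl diphosphate synthase gene, rose 1.86-fold, and Acat2, Mvd, Idi1 and Fdft1 rose between 1.55-fold and 1.65-fold. The test was edgeR's quasi-likelihood test on expected counts, with calls made where the p adjusted over all tested genes by Benjamini-Hochberg was under 0.05. It called 2.18% of tested genes higher with FAC, 1.1% lower and 3.27% in either direction. The median log2 change was 0.70 over the 9 genes and 0.00 (-0.0014) over all tested genes.

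Promoter sequence is shown for 4 of the genes. They were chosen to set a large (Hmgcs1), a middle (Idi1) and a small rise (Mvk) beside Ggps1, which did not pass the test. Each sequence is the 250 bases before the RefSeq start in GRCm38.p6, written 5′ to 3′ on the gene's strand. The positions are chr13:119690101-119690350 (plus strand) for Hmgcs1, chr13:8885356-8885605 (plus) for Idi1, chr5:114444019-114444268 (plus) for Mvk and chr13:14063489-14063738 (minus) for Ggps1. Of the 9 genes, 7 had a RefSeq promoter entry; Fdps and Fdft1 did not. Capitals mark matches on either strand to CCAAT (written ATTGG when on the other strand) or to TCACNCCAC, a form of the sterol regulatory element.
Hmgcs1: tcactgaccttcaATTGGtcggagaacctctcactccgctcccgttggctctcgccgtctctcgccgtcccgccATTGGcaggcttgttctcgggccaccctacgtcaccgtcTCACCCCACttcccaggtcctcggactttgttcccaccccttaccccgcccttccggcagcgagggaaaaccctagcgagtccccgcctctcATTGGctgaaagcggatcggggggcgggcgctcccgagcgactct
Idi1: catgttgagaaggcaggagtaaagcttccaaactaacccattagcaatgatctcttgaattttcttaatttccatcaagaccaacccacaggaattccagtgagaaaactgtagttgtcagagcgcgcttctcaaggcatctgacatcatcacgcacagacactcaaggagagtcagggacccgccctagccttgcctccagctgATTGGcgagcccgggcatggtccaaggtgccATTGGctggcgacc
Mvk: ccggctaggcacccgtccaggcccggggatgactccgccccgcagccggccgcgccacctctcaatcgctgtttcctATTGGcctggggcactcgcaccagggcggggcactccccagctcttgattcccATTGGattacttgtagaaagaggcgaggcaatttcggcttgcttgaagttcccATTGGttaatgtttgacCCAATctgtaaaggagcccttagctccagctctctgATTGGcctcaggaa
Ggps1: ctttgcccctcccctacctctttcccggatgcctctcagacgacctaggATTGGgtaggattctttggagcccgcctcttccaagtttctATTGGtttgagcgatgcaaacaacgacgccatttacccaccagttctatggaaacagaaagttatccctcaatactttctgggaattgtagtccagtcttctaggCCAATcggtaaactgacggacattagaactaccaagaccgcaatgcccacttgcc

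The Hmgcs1 window held TCACNCCAC on the forward strand from base -137 to base -129, counted from the start site, and 3 CCAAT matches. It was the only 1 of the 7 members with TCACNCCAC in these 250 bases, a motif found in 1.05% of all 32851 such windows. A longer form of the sterol regulatory element, any match to which also matches TCACNCCAC, was in 0 of 7 members and 0.0731% of windows, and CACGTG was in 0 of 7 and 6.02%. CCAAT was present in 6 of 7 members (all but Acat2) and in 33.8% of windows. Pmvk had 2 windows, with 1 CCAAT match in the first and 0 in the second, and counted as a member with a match. The percentages are of single windows, so the 2 figures are not strictly like for like. The GC box GGGCGG was present in 5 of 7 members and in 32.7% of windows. The Mvk window held 5 CCAAT matches, the Idi1 window 2 and the Ggps1 window 3, so this motif was found both in genes that rose and in the gene that did not pass. Both strands were searched in every window, and a match describes letters only.

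Library totals ran from 25410267 to 37350609 counts, and each member had between 356 and 14512 counts in every library. The cultures carried T cell markers, with summed TPM (a level scaled by transcript length and library size) of 6 genes between 2156 and 2225 in control and between 2312 and 2370 in FAC libraries. Of these 6, Cd5 was called (log2 change 0.14, SE 0.03, edgeR adjusted p = 0.0304). Lyz2 and Ncr1, which mark myeloid cells and NK cells, were at 0 TPM in every library. A count of 0 allows a level of 0.0803 to 0.118 CPM, depending on the library (CPM is the count scaled to library size). Summed TPM of 3 B cell markers was 0 to 0.22 in control and 0.08 to 0.31 in FAC libraries, and that of 4 myeloid markers 0.06 to 0.20 and 0.05 to 0.15. For 3 dendritic markers it was 0.02 to 0.05 and 0.01 to 0.15, and for 3 NK markers 0 to 0.14 in both groups. Cd8a stayed at or below 0.21 TPM, whereas Cd8b1 lay between 6.51 and 10.9 TPM and was not called. Of the erythroid pair, Hba-a1 and Hbb-bs, the library of control mouse 3 had 5.22 and 2.90 TPM and the other libraries 0. Of the stromal pair, Col1a1 was at or below 0.02 TPM, and with Pecam1 the sum ran from 3.37 to 4.62 TPM in control and from 3.77 to 5.50 TPM in FAC libraries. The part of Cd5, and of the T cell sum that moved with it, in the results was not tested.

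The entry steps rose. Acat2 encodes the cytosolic thiolase that joins acetyl-CoA units to acetoacetyl-CoA. Its level in controls 1 to 4 was 21.2, 21.6, 21.7 and 21.7 TPM, and in FAC 1 to 4 it was 35.2, 33.0, 32.2 and 38.1 TPM. The control values lay close together (21.5 ± 0.248, SD, n = 4), the FAC values were more spread (34.6 ± 2.65, n = 4), and the groups did not overlap. The log2 change was 0.63 (SE 0.06, edgeR adjusted p = 2.81e-05). Acat3, a paralog of Acat2 with which reads could be shared, stood at 1.13 ± 0.421 and 1.00 ± 0.295 TPM (n = 4 each), and its gene body overlaps that of Tcp1 on the opposite strand.

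Hmgcs1 condenses acetoacetyl-CoA with a further acetyl-CoA to HMG-CoA. Its level was 73.55, 65.4, 73.9 and 68.4 TPM in controls 1 to 4 and 147, 123, 139 and 128 TPM in FAC 1 to 4. The lowest FAC library lay 48.8 TPM above the highest control. The estimate was the largest of the 9 (log2 change 0.94, SE 0.06, edgeR adjusted p = 6.10e-07), and by p-value Hmgcs1 ranked 6 among all 13378 tested genes. A low antisense transcript over Hmgcs1, Gm48342, had 6 to 31 counts per library and was not called (0.83, SE 0.42, edgeR adjusted p = 0.32).

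The enzymes that convert mevalonate to isopentenyl diphosphate rose less evenly. Mvk, mevalonate kinase, stood at 13.45, 14.5, 12.97 and 15.5 TPM in controls 1 to 4 and at 16.6, 17.9, 18.7 and 22.9 TPM in FAC 1 to 4. The groups were apart by 1.04 TPM, and FAC 4 was the highest of the 8 libraries while FAC 1 lay nearest the controls. The log2 change was 0.38 (SE 0.09, edgeR adjusted p = 0.0459), so the call was close to its threshold. It ended without control 1, 2, 3 or 4 or without FAC 2, 3 or 4, where the edgeR adjusted p was 0.116, 0.0892, 0.14, 0.066, 0.11, 0.0925 and 0.0616 in that order. The call held in edgeR without FAC 1 (adjusted p = 0.0393), with RLE factors (0.0471) and without the filter on low counts (0.00766). It held with DESeq2 (adjusted p = 0.00792) and in edgeR with the mouse as a replicate block (adjusted p = 0.0109). The call also ended with limma on log2(TPM + 1), where the adjusted p was 0.0996, on the deposited signal, where it was 0.128, and in edgeR with effective length as an offset, where it was 0.116.

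Pmvk, phosphomevalonate kinase, stood at 24.4, 24.7, 24.8 and 26.35 TPM in controls 1 to 4 and at 37.0, 36.8, 36.7 and 34.7 TPM in FAC 1 to 4. All FAC libraries lay above all controls, and FAC 4 was the lowest FAC library. The log2 change was 0.50 (SE 0.06, edgeR adjusted p = 0.000171). Mvd, the decarboxylase that yields isopentenyl diphosphate, stood at 13.6, 12.8, 14.2 and 14.3 TPM in the controls and at 22.75, 22.15, 25.55 and 22.5 TPM with FAC. The gap between the groups was 7.81 TPM, and FAC 3 was the highest library (log2 change 0.72, SE 0.06, edgeR adjusted p = 2.01e-05).

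The genes from isopentenyl to farnesyl diphosphate were the most abundant and rose. Idi1, the isomerase that makes dimethylallyl diphosphate, had 150.2, 147, 148 and 143 TPM in controls 1 to 4 and 277, 235, 252 and 230.5 TPM in FAC 1 to 4. The groups did not overlap, and the CV (SD over mean) was 2.04% in controls and 8.41% with FAC. The log2 change was 0.70 (SE 0.05, edgeR adjusted p = 4.96e-06). Fdps, whose product farnesyl diphosphate stands at the branch to sterols, prenylation and ubiquinone, had 92.8, 95.2, 84.98 and 92.0 TPM in the controls and 167, 163, 170.2 and 186 TPM with FAC. Its groups were 67.7 TPM apart, and its log2 change was 0.89 (SE 0.06, edgeR adjusted p = 9.31e-07).

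At the branch beyond farnesyl diphosphate, the sterol side rose and the change on the geranylgeranyl side did not pass. Fdft1, squalene synthase, which commits farnesyl diphosphate to sterols, had 20.3, 21.5, 22.3 and 22.0 TPM in controls 1 to 4 and 35.85, 34.4, 39.1 and 38.5 TPM in FAC 1 to 4. The groups were 12.0 TPM apart (log2 change 0.72, SE 0.05, edgeR adjusted p = 2.18e-06). Ggps1, which makes geranylgeranyl diphosphate for prenylation of small GTPases, had 25.1, 22.2, 22.2 and 25.2 TPM in the controls and 21.2, 26.7, 23.7 and 22.8 TPM with FAC. Its groups overlapped in TPM, with FAC 1 the lowest and FAC 2 the highest of the 8 libraries. That order did not hold in log2 CPM, where FAC 1 lay above control 1 (0.05). There FAC lay below control in mice 2, 3 and 4 (-0.17, -0.10 and -0.10). The log2 change was -0.08 (SE 0.07, edgeR adjusted p = 0.585), with an approximate 95% interval from -0.22 to 0.06. Whether its change differed from those of the other 8 genes was not tested. RSEM's effective length of Ggps1 varied between libraries of 1 group (1812 to 2274 bases in control, 1768 to 2509 bases in FAC), which moves TPM but not counts. Ggps1 also overlaps Arid4b on the opposite strand, which was not called either (0.00, SE 0.08, edgeR adjusted p = 0.985), and Fdft1 overlaps Ctsb likewise (0.05, SE 0.05, edgeR adjusted p = 0.663). GENCODE M21 also lists Gm43738 over Fdps on the same strand (7512 bases) and Gm20388 over Mvd on the opposite strand. Neither is among the genes in the files. With the counting's strand setting unstated, it is not known whether reads of genes on opposite strands were kept apart. No strand setting would separate reads of Fdps and Gm43738.

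**Figure D1:**
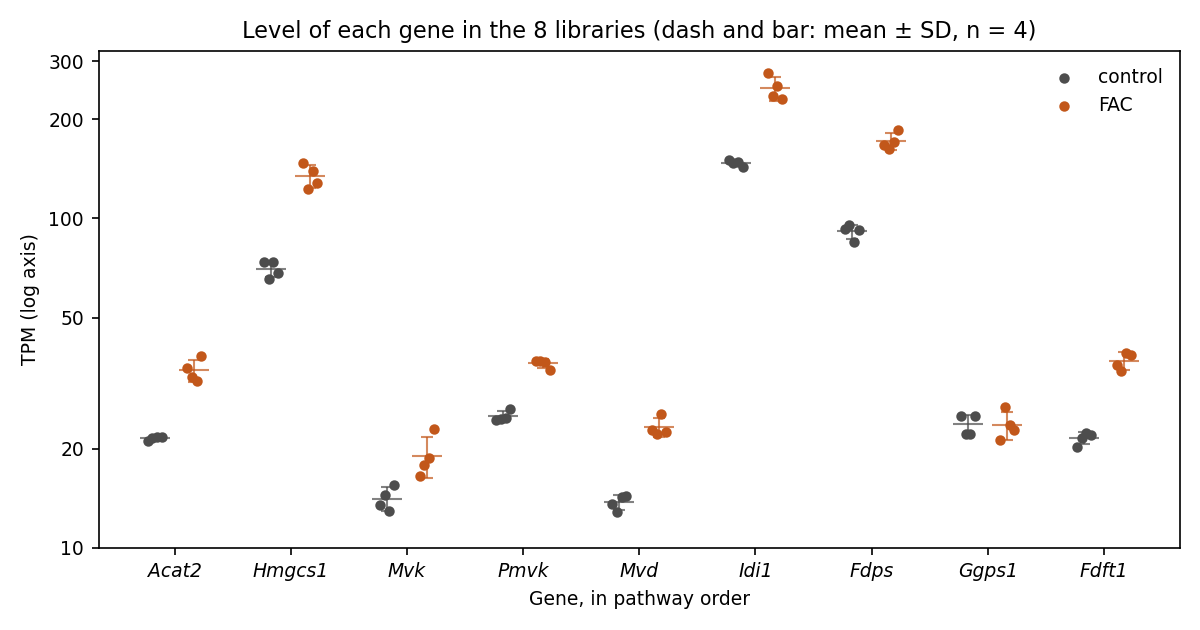
TPM (log axis) of the 9 genes in pathway order, with a point for each of the 4 control (grey) and 4 FAC (orange) libraries and the mean ± SD of each group. FAC points lie above all control points for 8 genes, and the groups overlap for Ggps1, at 23.7 ± 1.70 and 23.6 ± 2.31 TPM.

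Every FAC library lay above every control library in TPM for 8 of the 9 genes, as was the case for 7.08% of all tested genes. Within mice, the same 8 genes were higher with FAC in 4 of 4 mice, against 14.7% of tested genes, and Ggps1 was higher in 1 of 4. By size of change, some genes kept similar ranks from mouse to mouse and others moved more. Hmgcs1 ranked 1, 1, 2 and 2 among the 9 genes in mice 1 to 4, and Fdps 2, 3, 1 and 1. Mvk ranked 8, 8, 8 and 7, and Ggps1 came last in every mouse, with log2 changes of 0.05, -0.17, -0.10 and -0.10. Mvd moved more, at 5, 2, 3 and 6, as did Acat2, at 6, 6, 7 and 4. Idi1 ranked 3, 5, 4 and 5, Fdft1 4, 4, 5 and 3, and Pmvk 7, 7, 6 and 8. The log2 change of Mvk was lowest in mouse 2 (0.23) and highest in mouse 4 (0.58), a wider range than that of Pmvk, from 0.43 in mouse 4 to 0.55 in mouse 1. Mice did not share a single order of response: mouse 1 had the largest rise of Hmgcs1 (1.05) and Idi1 (0.84), and mouse 4 the largest of Acat2 (0.77), Mvk, Fdps (1.01) and Fdft1 (0.81).

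**Figure D2:**
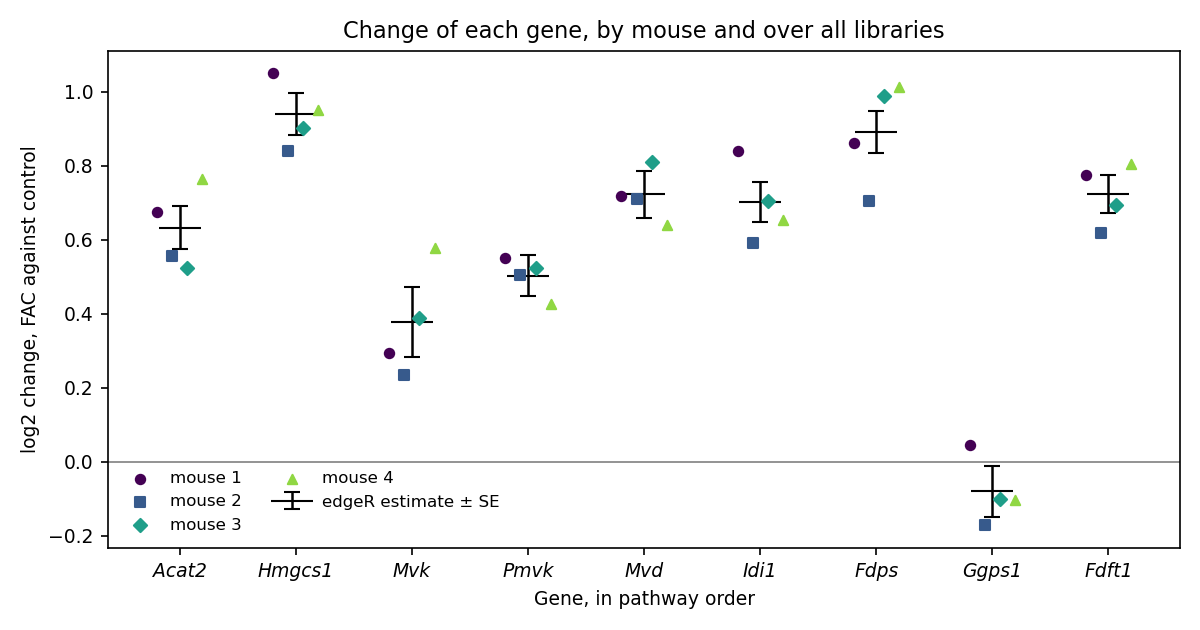
log2 change with FAC for the 9 genes in pathway order, with a symbol for each mouse (log2 CPM of the FAC minus the control culture) and a black dash and bar for the edgeR estimate ± SE. Symbols of 8 genes lie above 0 in all 4 mice, and those of Ggps1 lie between -0.17 and 0.05.

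The order of the levels kept its first 3 places with FAC, and the lower places changed. In controls the mean TPM was highest for Idi1 (147 ± 3.00), then Fdps (91.25 ± 4.40) and Hmgcs1 (70.3 ± 4.12), whose ranges over the libraries were apart. Pmvk (25.05 ± 0.887), Ggps1 (23.7 ± 1.70), Fdft1 (21.5 ± 0.9035) and Acat2 followed, each overlapping with the next, and Mvk (14.1 ± 1.14) and Mvd (13.75 ± 0.698) were lowest and overlapped. With FAC the first 3 places were the same, at 249 ± 20.9, 171 ± 10.1 and 134 ± 10.9 TPM (n = 4 each). Fdft1 (36.95 ± 2.22), Pmvk (36.3 ± 1.09) and Acat2 then overlapped with each other and were apart from Ggps1 (23.6 ± 2.31), which moved from place 5 to place 7. Mvd (23.2 ± 1.56) overlapped with Ggps1, and Mvk (19.0 ± 2.73) with Mvd.

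Summed over the 9 genes, the level was 434.5, 425.3, 425.3 and 428.6 TPM in controls 1 to 4 and 759, 692, 737 and 724 TPM in FAC 1 to 4. Idi1 made up 34.4% ± 0.660 of this sum in controls and 34.1% ± 1.89 with FAC (SD, n = 4). Hmgcs1 went from 16.4% ± 0.906 to 18.4% ± 0.834 and Fdps from 21.3% ± 0.995 to 23.6% ± 1.56. The share of Ggps1 went from 5.52% ± 0.353 to 3.25% ± 0.444 and that of Mvk from 3.29% ± 0.271 to 2.62% ± 0.404. These shares describe the 9 genes and carry no test. In controls the median CV of the 9 genes was 4.83%, against 5.87% over the 6586 tested genes at or above the level of Mvd, and with FAC it was 7.66% against 5.88%. In such bulk samples, a change in the share of cells that express a gene and a change in RNA per cell cannot be told apart.

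Of the 11 enzymes from squalene to cholesterol, 10 rose and 1, Ebp, did not pass. Their median log2 change was 0.68, beside 0.70 for the mevalonate arm. By size of change the first 4 were Msmo1 (0.94, SE 0.05), Lss (0.80, SE 0.05), Tm7sf2 (0.71, SE 0.17) and Hsd17b7 (0.69, SE 0.07). Their edgeR adjusted p were 3.97e-07, 9.31e-07, 0.0344 and 7.07e-05. Ebp, a sterol isomerase gene, was at 28.5 ± 1.31 and 28.8 ± 1.98 TPM (n = 4 each; 0.07, edgeR adjusted p = 0.626). The Tm7sf2 call ended with limma on log2(TPM + 1), at an adjusted p of 0.211, on the deposited signal (0.261) and in edgeR with the length offset (0.283). It also ended without control 1, 2 or 3 or FAC 2 or 3, with edgeR adjusted p of 0.0882, 0.0525, 0.0972, 0.104 and 0.124.

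Of 8 sterol regulators and uptake genes, 3 rose, among them Insig1, which encodes the protein that holds SREBPs in the endoplasmic reticulum when sterols are plentiful (0.80, SE 0.05), and Srebf2, which encodes SREBP-2 (0.37, SE 0.04). The edgeR adjusted p of Insig1 and Srebf2 were 4.56e-07 and 0.000258. Insig2 had a log2 change of -0.25 and was not called (edgeR adjusted p = 0.311). The median of the 8 was 0.11.

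Of 15 genes that use farnesyl, geranylgeranyl or isopentenyl diphosphate, for protein prenylation, ubiquinone side chains, dolichol or tRNA modification, edgeR called 0, with log2 changes from -0.14 to 0.11 and a median of -0.04. With 3.27% of all tested genes called in either direction, a count of 0 among 15 is near the background, and no difference between the lists was tested. At an unadjusted p under 0.05 there was 1, while DESeq2 called 1 and limma on log2(TPM + 1) called 0. The DESeq2 call was Zmpste24, the protease that trims prenylated prelamin A (-0.14, SE 0.05, edgeR adjusted p = 0.104, and 0.0213 with the replicate block, the fit that models the mouse). Coq2 (0.11), Chm (-0.10) and Nus1 (-0.09) had edgeR adjusted p of 0.366, 0.466 and 0.404, and Chm turned to 0.05 with limma on log2(TPM + 1). Among isozymes, Acat1, the mitochondrial thiolase, was at 29.4 ± 2.96 and 29.4 ± 2.80 TPM (n = 4 each; -0.04, edgeR adjusted p = 0.734), and Idi2, a paralog of Idi1, was not called (0.14, edgeR adjusted p = 0.692). Acat3 was not called (-0.04, SE 0.29, edgeR adjusted p = 0.964), so edgeR called 0 of these 3. DESeq2 also called 0, and 0 had an unadjusted p under 0.05.

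**Figure D3:**
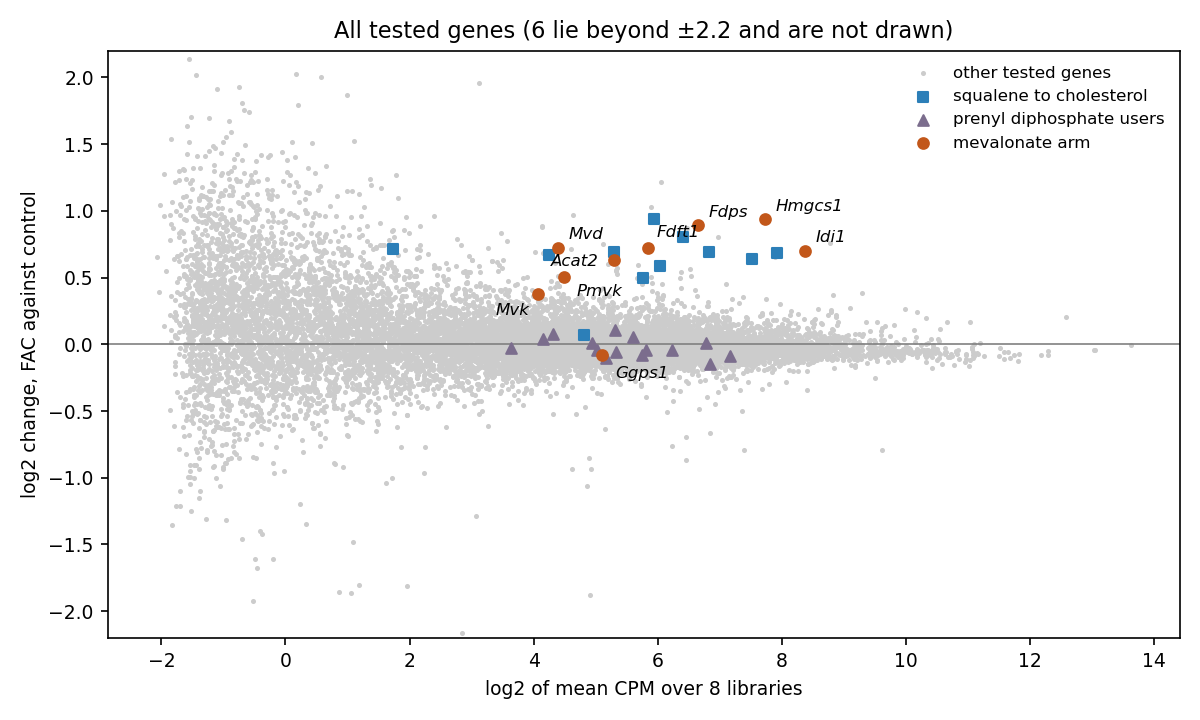
log2 change with FAC against log2 of the mean CPM over the 8 libraries, a point per tested gene (6 beyond ±2.2 are not drawn), with the mevalonate arm (orange circles, named), the squalene to cholesterol enzymes (blue squares) and the genes that use prenyl diphosphates (purple triangles). All mevalonate arm genes but Ggps1 lie above 0.3, and the 15 triangles lie between -0.14 and 0.11.

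Mmab, a cobalamin metabolism gene, lies head to head with Mvk, with 241 bases between the RefSeq starts. Mmab had 8.08, 7.31, 8.55 and 7.79 TPM in controls 1 to 4 and 8.58, 9.03, 10.4 and 10.9 TPM in FAC 1 to 4. The groups were apart by 0.03 TPM, and Mmab was higher with FAC in 4 of 4 mice. The log2 change was 0.34 (SE 0.08, edgeR adjusted p = 0.0379), beside 0.38 for Mvk. The Mmab call held with DESeq2 (adjusted p = 0.00729) and in edgeR with the mouse as a replicate block (0.0183). In edgeR it also held with RLE factors (0.0382), without the filter on low counts (0.023) and without FAC 1 (0.0223). The Mmab call ended without any 1 of the controls and without FAC 2, 3 or 4, with edgeR adjusted p from 0.0661 without FAC 4 to 0.144 without FAC 3. It also ended with limma on log2(TPM + 1) (0.26, adjusted p = 0.247), with limma on the deposited signal (0.24, adjusted p = 0.252) and in edgeR with effective length as an offset (0.25, adjusted p = 0.237). Tcp1, a chaperonin gene next to Acat3, was not called (613 ± 6.53 and 618.5 ± 23.5 TPM, n = 4 each; -0.05, edgeR adjusted p = 0.506). Slc16a6, a monocarboxylate transporter gene, was not called (-0.08, edgeR adjusted p = 0.612) and had the opposite sign, 0.12, with limma on log2(TPM + 1).

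The genes with the most similar pattern were sought among the 10397 other tested genes whose log2 CPM averaged 1 or more. Likeness was Pearson's r over the 8 libraries between a gene's log2 CPM and the mean standardised log2 CPM of the 9 members. The 8 highest had r from 0.99 to 0.97 and included Msmo1, Cyp51, Sqle, Cd82, Insig1 and Stard4. Cd82, which encodes a membrane tetraspanin, had a smaller change than the others (0.25, SE 0.03, edgeR adjusted p = 0.000574), at 221 ± 4.01 and 270.1 ± 2.57 TPM (n = 4 each). Stard4, a sterol transfer protein gene, rose from 29.6 ± 2.90 to 49.8 ± 3.20 TPM (0.57, SE 0.05, edgeR adjusted p = 1.42e-05). Among the members, r with the mean of the other 8 was 0.96 to 0.98 for 7 genes, 0.78 for Mvk and -0.42 for Ggps1. All these values share the same 8 libraries and are led by the difference between the groups, so they are descriptions.

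**Figure D4:**
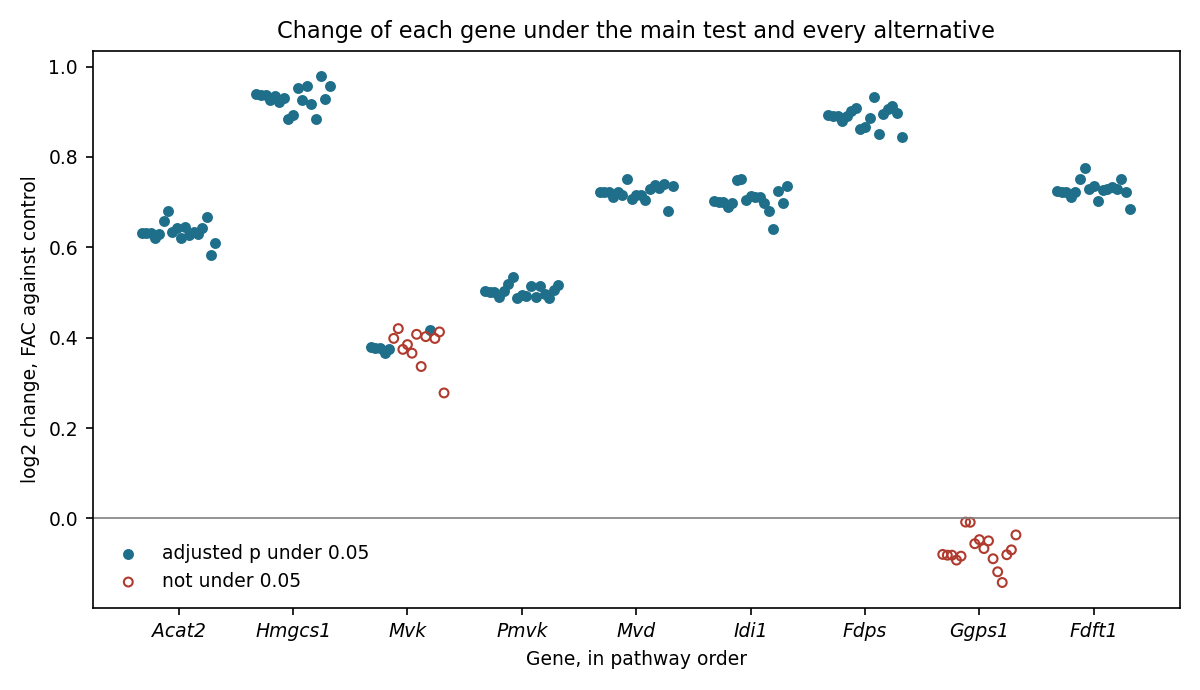
log2 change of the 9 genes under the main test (first point of each gene) and under each alternative processing, filled where the adjusted p was under 0.05 and open where not. Points of 7 genes are all filled, those of Mvk are partly open and range from 0.28 to 0.42, and those of Ggps1 are all open.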

How the data were processed

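RNA of 4 control and 4 FAC cultures was sequenced; libraries were made with a stranded mRNA kit from 250 ng of RNA, per the labels' protocols. GRCm39, RSEM 1.3.1, STAR 2.7.6a, DESeq2 1.26.0, DESeq, FastQC and R 3.6.3 are listed without roles in the submitters' processing notes. The annotation and strand setting, not given in the sources used here, could move counts of overlapping genes. The authors deposited expected counts from RSEM, TPM and effective lengths for each library, per the file headers. The deposited normalised signal covers 13751 genes, scaled between libraries by the authors by a method not given in the sources used here.

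Expected counts, rounded to whole numbers, were filtered with edgeR's filterByExpr (minimum count 10, minimum total 15), which kept 99.9% of counts. They were scaled with TMM factors and tested with edgeR 4.0.16 (R 4.3.3) on group alone; the SE is the absolute log2 change over the square root of F. Log2 CPM used a prior count of 2. Levels between genes were compared in TPM. The fitting script was tested on simulated data. Counting limits cover counting error only, since reads carry no molecular identifiers. Alternatives were DESeq2 1.42.0, limma 3.58.1 on TPM or signal, RLE factors, no filter, effective length as an offset, libraries left out and the mouse as a replicate block. A mouse number marks cultures of 1 animal. Across genes, r between deviations of paired libraries was 0.137, 0.0165, 0.0647 and 0.139. Between control and FAC libraries of different mice, r ran from -0.18 to 0.0331.

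All members and the fixed genes Acat3, Mmab and Tcp1 are named; other lists give up to 4 genes by size of change, called genes first, and Ebp and the marker genes were named after their values were seen. Some genes that this rule names are not reported here. Members and lists were chosen with earlier results of these data known. Promoters and gene overlaps are from RefSeq and GENCODE M21 (GRCm38), the build before the authors' own.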

Additional observations from a re-analysis of the deposited data

Results flagged for a closer look

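Of 18 sets of 4 TPM values (9 genes in 2 groups), 1 held a library far from the others. Pmvk stood at 34.7 TPM in FAC 4, below the other FAC libraries, with a gap of 0.866 of the group's range, above Dixon's 95% critical value for 4 samples. Chance flags about 1 in 20 such groups. The check was made on TPM only and not on the counts that edgeR tested, so the flag holds for TPM alone. In CPM, Pmvk stood at 26.3 ± 0.582 with FAC (SD, n = 4). Without FAC 4 the Pmvk log2 change was 0.52 (SE 0.06, edgeR adjusted p = 0.000348), beside 0.50 with all libraries.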

How the results depend on the processing

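Across the 16 alternatives, 7 members were called higher in every one, with log2 changes of 0.58 to 0.68 for Acat2, 0.88 to 0.98 for Hmgcs1, 0.49 to 0.53 for Pmvk, 0.68 to 0.75 for Mvd, 0.64 to 0.75 for Idi1, 0.84 to 0.93 for Fdps and 0.69 to 0.78 for Fdft1. Mvk was called in 5 of 16 and in 1 of the 8 that leave out a library, at 0.28 to 0.42 with adjusted p from 0.00766 to 0.14. Ggps1 was called in 0 of 16, at -0.14 to -0.01 with adjusted p from 0.227 to 0.977. Summing Acat2 and Acat3 gave 0.61 for Acat2 (edgeR adjusted p = 2.62e-05). Among all genes, the numbers higher and lower with FAC were 291 and 147 as reported, 499 and 298 with DESeq2, 450 and 286 without a filter on low counts, and 544 and 375 with the replicate block. They were 112 and 32 with limma on log2(TPM + 1), 108 and 30 on log2(TPM + 0.1), 99 and 57 on the deposited signal and 126 and 61 with effective length as an offset. Leaving out 1 library gave 80 to 405 higher and 65 to 243 lower. Of the other pathway genes, 1 (Zmpste24) was called lower with DESeq2 and 1 (Zmpste24) with the replicate block, and the block changed no other call among the members and the other pathway genes given here. Some genes that were not called changed sign. With limma on log2(TPM + 1) and log2(TPM + 0.1), Acat1 went to 0.0009 and 0.0009, Chm to 0.0524 and 0.0556, Slc16a6 to 0.12 and 0.12, and Tcp1 to 0.0114 and 0.0115. On the deposited signal and with the length offset, Chm went to 0.0085 and 0.0196 and Slc16a6 to 0.0751 and 0.0846. Acat3 ranged from -0.22 to 0.16 with 1 library left out. The cause of these differences was not tested. The median log2 change of all genes stayed between -0.0059 and 0.0404. Depth limits Acat3 and Gm48342, which had 28 to 59 and 6 to 31 counts per library.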
